A study of Mus musculus with 8 samples.

Results

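The genes described here encode actin, the proteins that bundle, coat, contract and anchor actin filaments, and the transcription factor SRF. They form a list of 50 mouse genes, chosen by name for their part in the actin cytoskeleton and matched by exact symbol to the array's annotation. All 50 had a probe set, out of 18193 genes with 1 symbol on the array, and the brightest probe set of each gene, by its mean signal in the 8 samples, was read. The list was not chosen on measured values, but it was drawn up with earlier results of these arrays known, so no test of the list as a whole is given. The samples are mouse embryonic stem (ES) cells of the strain label Oct4-Gip at passage 25, taken on day 4 after lipofection with an esiRNA, a mixture of small interfering RNAs made by enzymatic digestion of long double-stranded RNA. In 4 samples the esiRNA was directed against luciferase, a firefly gene that serves as transfection control, and in 4 against Ctr9, which encodes a subunit of the Paf1 complex that accompanies RNA polymerase II during elongation. All 8 samples therefore carry the same strain, passage, delivery and day, and differ in the esiRNA. The question of the comparison is which transcripts differ once Ctr9 is targeted.

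Actin filaments give cells their shape, and with non-muscle myosin they generate tension that is passed through focal adhesions to the substrate. Tropomyosins and calponins run along the filaments and set which other proteins can bind them. Free actin monomers hold back MRTF coactivators, which otherwise enter the nucleus and drive SRF at a DNA element called the CArG box. Many genes of the contractile apparatus are classical SRF targets, and mouse ES cells, which grow as rounded colonies, are known for low contractility compared with differentiated cells.

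The medians of the arrays ran from 5.74 to 5.76 log2 units, and pairs of arrays correlated at 0.997 to 0.998 within groups against 0.992 to 0.994 between groups. The first principal component, with 62.3% of the variance, separated the treatments. The second, with 8.93%, set luciferase replicates 1 and 2 apart from 3 and 4, and counts are therefore also given without either set. For 31 of the 50 genes (62%), luciferase replicates 1 and 2 both read above or both below replicates 3 and 4, against 41.9% of all genes. The brightest Ctr9 probe set differed by only -0.09 (limma adjusted p = 0.209), the next 2 were lower by 0.15 and 0.18 log2 units, and a dim one was higher by 0.29, so the groups are named by their labels. Nothing in the labels tells whether the samples of a group were separate cultures, so the p-values rest on the spread among these 8 arrays alone, and that spread may be technical.

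Most of the actin cytoskeleton genes were more abundant with Ctr9 esiRNA. Of the 50 genes, 34 rose (68%), 1 fell (2%) and 15 did not pass, while among all genes 15.8% were called higher and 15% lower (limma, Benjamini-Hochberg adjusted p under 0.05 over all probe sets). All 50 genes read above the median of the luciferase arrays, while the background includes dim genes. On probe sets above the median signal alone, 72% of the 50 were higher, against 25.8% of 11814 genes. The median log2 difference of the 50 was 0.27, a 1.20-fold change, against 0.0036 for all genes. Every gene that rose had 4 Ctr9 esiRNA values above all 4 luciferase values. Counting genes that did not pass as well, the groups did not overlap for 37 genes that were higher and 2 that were lower, against backgrounds of 18.8% and 17.8% of all genes. Increases of at least 0.5 log2 units were found for 16 of the 50 genes, against 4.11% of all genes. Of the 50, 13 rose by at least 1.5-fold, against 3.07%, and 5 rose by at least 2-fold. The share of all genes that rose by at least 2-fold was not counted. Without luciferase replicates 1 and 2 the count of genes that rose was 30, and without luciferase replicates 3 and 4 it was again 30. The arrays read RNA from the whole culture, so a change in the share of cells of a type and a change in RNA per cell cannot be told apart.

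**Figure D1:**
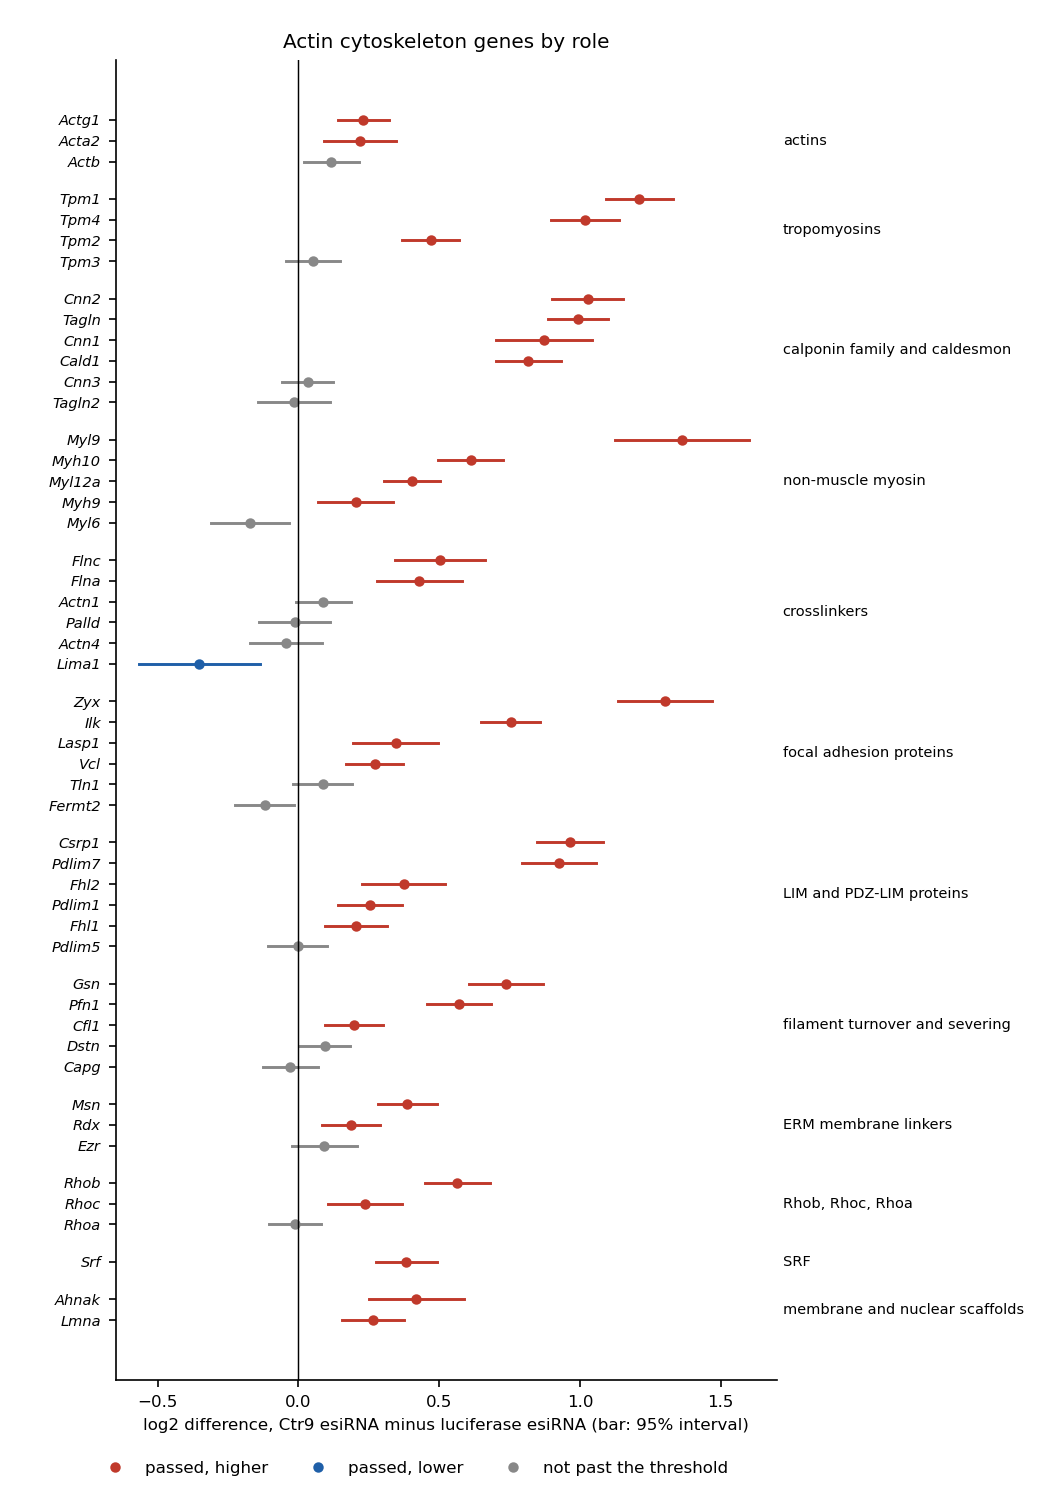
Log2 difference between Ctr9 esiRNA and luciferase esiRNA (horizontal axis) for each of the 50 genes, grouped by role, with points for limma's estimate and bars for its 95% interval (n = 4 arrays per group). Red points passed and were higher (34 genes), the blue point passed and was lower (Lima1), and the 15 grey points did not pass; the largest values are those of Myl9, Zyx and Tpm1.

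The median shift over all 50 genes was similar in the 4 Ctr9 esiRNA arrays, though this median does not show how single genes varied. Measured against each gene's luciferase mean, the median shift of the 50 genes was 0.30, 0.26, 0.25 and 0.30 in Ctr9 esiRNA replicates 1 to 4. In the luciferase arrays themselves it lay between -0.010 and 0.028. Between 39 and 41 of the 50 genes stood above all 4 luciferase values in each Ctr9 esiRNA array. The share of all genes that did so was not counted, so these counts compare the Ctr9 esiRNA arrays with each other only. No Ctr9 esiRNA array carried the increase alone.

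The transcription factor gene Srf, whose product binds CArG boxes in the promoters of many actin genes, was higher. Srf read 7.96, 7.94, 7.98 and 8.03 in luciferase replicates 1 to 4 and 8.31, 8.42, 8.31 and 8.42 in Ctr9 esiRNA replicates 1 to 4. The groups were separate, and the log2 difference was 0.38 (SE 0.049, limma adjusted p = 0.000267), a 1.30-fold increase. A second Srf probe set changed by 0.37. The genes of the SRF coactivators gave smaller values, 0.08 for Mrtfa and 0.19 for Mrtfb, neither of which passed (limma adjusted p = 0.401 and 0.0677), and that of Myocd, the muscle coactivator, read 4.83 with luciferase esiRNA, below the array median.

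The CArG box, which SRF binds, was searched in 300-base promoters that run from 250 bases before to 50 after each annotated start (RefSeq, GRCm38.p6). It was present in 10 of 48 genes of the list with an entry (20.8%), against 1.58% of 14452 measured genes and 1.63% of all 32851 promoters in the table. Tagln and Actb were without an entry. Of the 10 genes with a CArG box, 7 rose, 1 fell and 2 did not pass. The box was as common in genes that rose (7 of 33, 21.2%) as in the others (3 of 15, 20%), and the median log2 difference was 0.25 for genes with it and 0.31 for genes without. All boxes found begin with CC, end with GG and hold only A and T between. Looser matches and boxes outside the 300 bases were not counted. These shares therefore cannot tell whether SRF had a part in the increases, which was not tested. The following stretches around the box are shown because 3 of them share the same 10-base element, CCTTATAAGG. They belong to a gene that rose strongly, 1 that rose weakly and 1 whose fall did not pass without luciferase replicates 1 and 2. Capitals mark CArG boxes, and each sequence is read 5′ to 3′ on the strand of its gene.
Cnn2, chr10:79988499-79988598, plus strand: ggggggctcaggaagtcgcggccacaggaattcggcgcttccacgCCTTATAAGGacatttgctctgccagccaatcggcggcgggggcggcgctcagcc
Vcl, chr14:20929148-20929225, plus strand: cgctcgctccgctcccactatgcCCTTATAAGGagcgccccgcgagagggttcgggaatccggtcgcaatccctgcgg
Lima1, chr15:99820142-99820241, minus strand: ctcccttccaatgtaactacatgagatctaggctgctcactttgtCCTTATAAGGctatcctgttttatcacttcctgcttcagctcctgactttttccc
Srf, chr17:46556190-46556289, minus strand: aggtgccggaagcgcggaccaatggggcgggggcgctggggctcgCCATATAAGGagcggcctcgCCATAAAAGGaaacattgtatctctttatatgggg
Actg1, chr11:120348531-120348630, minus strand: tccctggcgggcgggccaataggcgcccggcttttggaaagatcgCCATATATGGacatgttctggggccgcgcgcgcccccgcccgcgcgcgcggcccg
Myl9, chr2:156775258-156775357, plus strand: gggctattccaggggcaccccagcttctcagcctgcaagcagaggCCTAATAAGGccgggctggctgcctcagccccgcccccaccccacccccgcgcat
Myl6, chr10:128493005-128493104, minus strand: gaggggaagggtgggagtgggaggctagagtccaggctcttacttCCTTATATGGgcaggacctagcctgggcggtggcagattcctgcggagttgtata

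The element began 56 bases before the start of Cnn2, 227 before that of Vcl and 47 before that of Lima1, whose log2 differences were 1.03, 0.27 and -0.35. Srf itself carried 2 boxes, 82 and 62 bases before its start. Fhl2 has 2 annotated starts, each with a box, and Fhl1 and Fermt2 had 1 each, and the 10 genes together held 12 boxes of 8 different sequences. The element of Myl6, whose log2 difference was -0.17 without passing, is the same CCTTATATGG as in Fhl2, which rose by 0.37 (SE 0.066). A match of letters is a description and does not show that SRF was bound in these cells.

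Of Rhoa, Rhob and Rhoc, whose products start filament assembly, Rhob rose most. It read 8.98, 8.99, 8.99 and 8.98 in the luciferase arrays and 9.65, 9.59, 9.48 and 9.47 in the Ctr9 esiRNA arrays, a difference of 0.56 (SE 0.052, limma adjusted p = 3.30e-05). The luciferase values of Rhob were the tightest of the whole list (SD 0.0076, n = 4). Rhoc rose by 0.24 (SE 0.059), a call that ended when luciferase replicates 1 and 2 (limma adjusted p = 0.0837) or 3 and 4 (0.0574) were left out. Rhoa, the GTPase best known for stress fibres, differed by -0.011 with a 95% interval from -0.10 to 0.080. The response of Rhob differed from that of Rhoa by 0.58 and from that of Rhoc by 0.33 within arrays (exact two-sided permutation p = 0.0286 each, adjusted p = 0.0395 over 29 pairs), so the 3 closely related transcripts did not move alike.

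The actins themselves changed little. Actg1, cytoplasmic gamma-actin, read 13.98, 13.98, 14.002 and 14.01 with luciferase esiRNA and 14.23, 14.23, 14.20 and 14.22 with Ctr9 esiRNA, and rose by 0.23 (SE 0.040, limma adjusted p = 0.00198). Acta2, smooth muscle alpha-actin, read 8.08, 8.04, 7.97 and 7.88 against 8.13, 8.22, 8.22 and 8.28, and rose by 0.22 (SE 0.057, limma adjusted p = 0.0185). The groups of Actg1 were far apart for their spread, while those of Acta2 nearly touched. The call of Acta2 ended without Ctr9 esiRNA replicate 4 (limma adjusted p = 0.0549) or without luciferase replicates 3 and 4 (0.137). The other probe sets of Acta2 were dim and did not pass. Actb, cytoplasmic beta-actin, read 14.61, 14.58, 14.51 and 14.52 against 14.70, 14.65, 14.66 and 14.68. Its groups did not overlap, but the difference of 0.12 (SE 0.044) did not pass (limma adjusted p = 0.085).

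The manufacturer's control probe sets gave a further reading of Actb. Their differences were 0.13 at the 5′ end, 0.15 in the middle and 0.13 at the 3′ end of the transcript, with groups that did not overlap (exact two-sided permutation p = 0.0286 each, the smallest that 4 against 4 allows). The 3′ minus 5′ difference, a measure of RNA integrity, was 0.228 ± 0.026 with luciferase esiRNA and 0.231 ± 0.030 with Ctr9 esiRNA (SD, n = 4 each; exact permutation p = 0.914). Actb and Actg1 were among the brightest transcripts measured, and saturation of their probe sets was not tested.

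Of the 4 tropomyosins, which coat actin filaments, Tpm1, Tpm4 and Tpm2 rose and Tpm3 did not pass. Tpm1 read 10.06, 10.06, 10.21 and 10.14 in the luciferase arrays and 11.25, 11.38, 11.31 and 11.36 in the Ctr9 esiRNA arrays, an increase of 2.31-fold (1.21, SE 0.053, limma adjusted p = 3.19e-07). Tpm4 read 10.20, 10.14, 10.12 and 10.02 against 11.15, 11.14, 11.06 and 11.21, an increase of 2.02-fold (1.02, SE 0.055, limma adjusted p = 1.10e-06). In both genes the distance between the groups was several times the spread within them. Tpm2 rose by 0.47 (SE 0.045). Tpm3, at 12.62 ± 0.032 and 12.68 ± 0.030 (SD, n = 4 each), differed by 0.051 with an interval from -0.044 to 0.15. Within arrays, the response of Tpm1 exceeded that of Tpm3 by 1.16 and that of Tpm2 by 0.74, and the response of Tpm4 exceeded that of Tpm3 by 0.97 (exact permutation p = 0.0286, adjusted p = 0.0395 for each). Tpm1 and Tpm4 differed from each other by 0.19 with overlapping groups (exact permutation p = 0.0571). A dimmer Tpm3 probe set did pass, at 0.32.

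Among the calponin family and caldesmon, which bind filaments and restrain myosin, 4 of 6 genes rose, against 15.8% of all genes. Tagln, transgelin or SM22, a marker of smooth muscle and a classical SRF target, read 8.39, 8.46, 8.43 and 8.47 with luciferase esiRNA and 9.36, 9.41, 9.43 and 9.51 with Ctr9 esiRNA, a rise of 0.99 (SE 0.049, limma adjusted p = 6.02e-07). Cnn2, the calponin of non-muscle cells, read 9.49, 9.27, 9.48 and 9.46 against 10.45, 10.43, 10.46 and 10.46, a rise of 1.03 (SE 0.057, limma adjusted p = 1.30e-06). Its Ctr9 esiRNA values agree to within a few hundredths of a log2 unit, while luciferase replicate 2 lay below the other controls. Cnn1, the smooth muscle calponin, read 6.03, 6.24, 5.97 and 6.08 against 6.81, 6.92, 7.10 and 6.98 (0.87, SE 0.077). Cald1, caldesmon, read 10.14, 10.26, 10.23 and 10.07 against 10.98, 10.97, 10.99 and 11.02 (0.82, SE 0.052). The groups of all 4 genes were well apart. Their relatives Tagln2 (-0.015, 95% interval from -0.14 to 0.11) and Cnn3 (0.03, from -0.058 to 0.12) did not pass on any probe set. Tagln exceeded Tagln2 in its response by 1.01, and Cnn2 and Cnn1 exceeded Cnn3 by 0.99 and 0.84 (exact permutation p = 0.0286, adjusted p = 0.0395 for each).

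**Figure D2:**
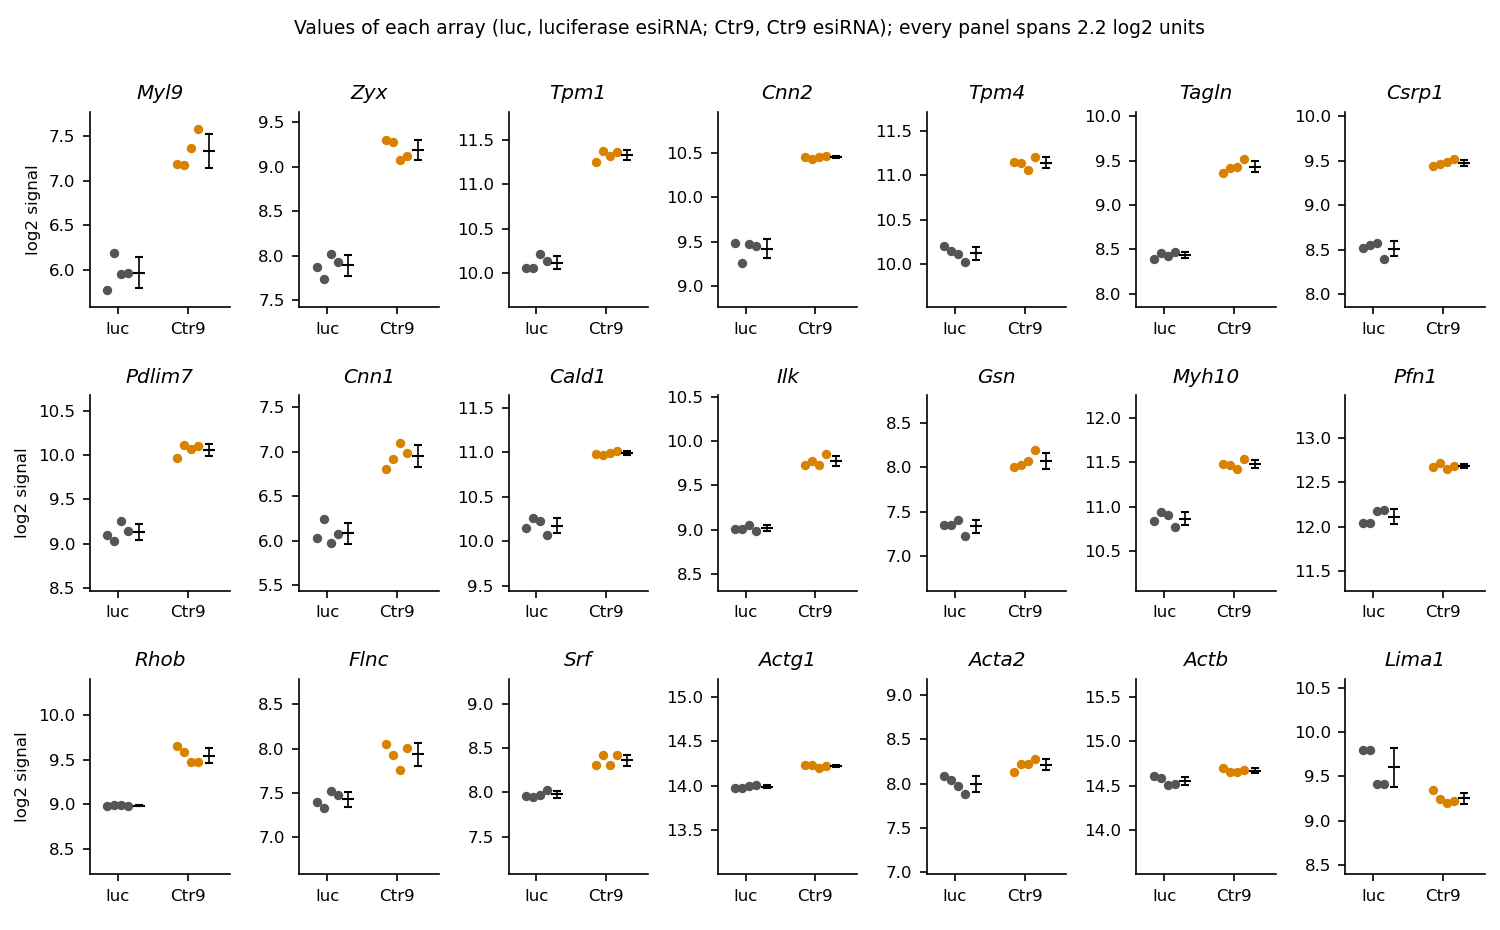
Log2 signal (vertical axis) of each array for the 16 genes that rose by at least 0.5, the gene that fell (Lima1), the 3 actins and Srf; grey points are the 4 luciferase esiRNA arrays, orange points the 4 Ctr9 esiRNA arrays (replicates 1 to 4 from left to right), and bars give the mean and SD (n = 4). Each panel spans the same range of 2.2 log2 units, so distances compare between panels; the groups are apart in all 21 panels, and the 4 control values of Lima1 fall in 2 pairs.

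**Figure D3:**
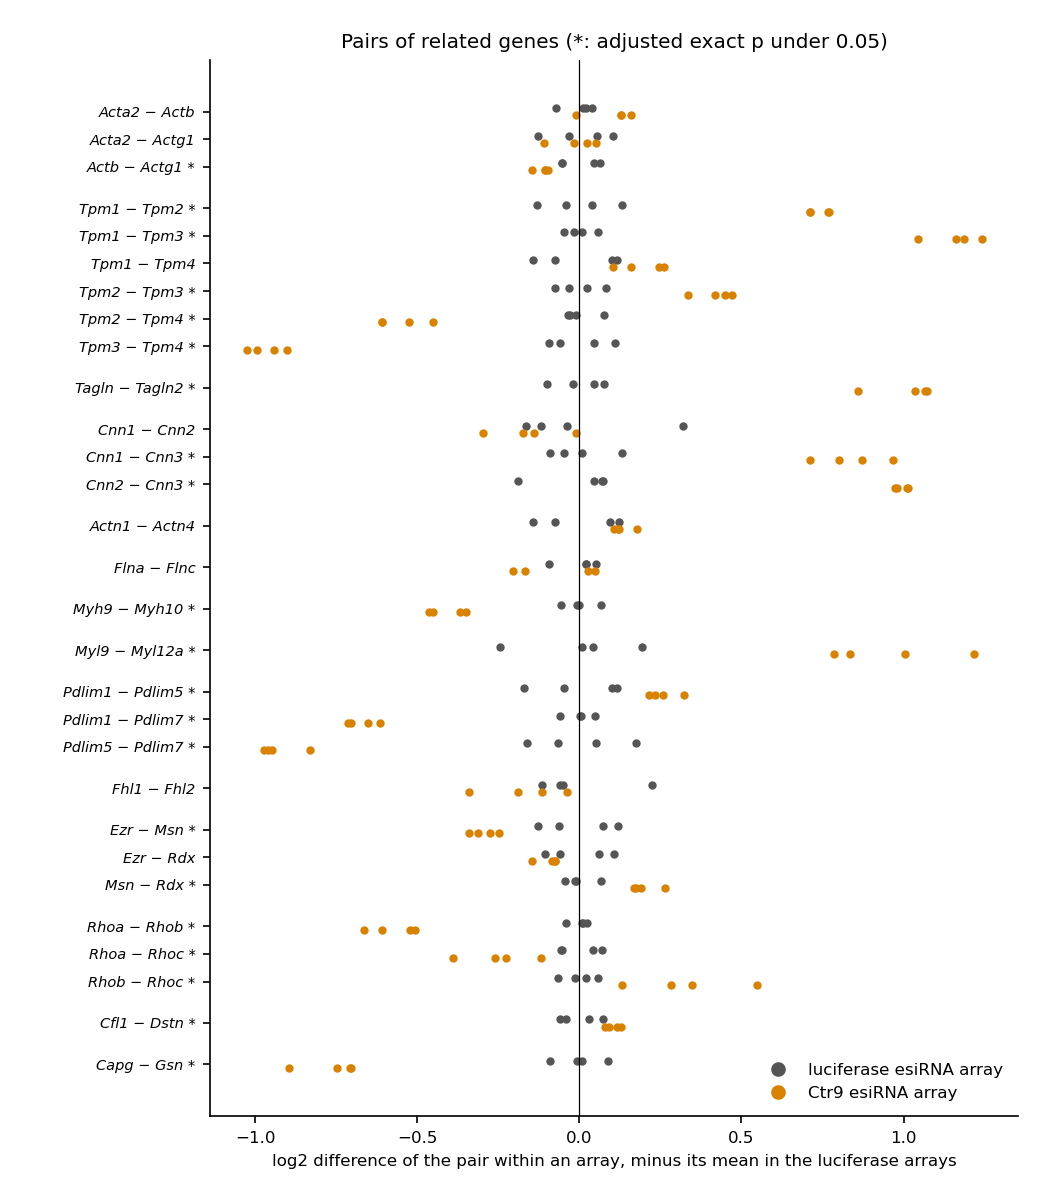
Difference between 2 related genes within each array, relative to its mean in the luciferase arrays (horizontal axis, log2 units), for 29 pairs from 14 families; grey points are luciferase esiRNA arrays and orange points Ctr9 esiRNA arrays. A star marks the 21 pairs whose exact permutation test passed after adjustment over the pairs; Tpm1 against Tpm3 lies farthest to the right.

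Non-muscle myosin, the motor that pulls on actin, is built of heavy chains, regulatory light chains and essential light chains. The regulatory light chain gene Myl9 had the largest difference of the 50 genes. Myl9 read 5.77, 6.19, 5.95 and 5.96 in the luciferase arrays and 7.19, 7.18, 7.37 and 7.58 in the Ctr9 esiRNA arrays, an increase of 2.57-fold (1.36, SE 0.107, limma adjusted p = 1.16e-05). Its control values lay just above the array median, and its SE was the highest of the list. The other regulatory light chain gene, Myl12a, rose by 0.40 (SE 0.045), and the response of Myl9 exceeded it by 0.96 (exact permutation p = 0.0286, adjusted p = 0.0395). The essential light chain gene Myl6 differed by -0.17 (SE 0.063, limma adjusted p = 0.0739) with overlapping groups.

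Of the heavy chains, Myh10, which encodes myosin IIB, read 10.84, 10.93, 10.91 and 10.77 against 11.48, 11.47, 11.42 and 11.54, a rise of 0.61 (SE 0.052, limma adjusted p = 1.84e-05). A dim second probe set of Myh10 differed by -0.042 and did not pass. Myh9, which encodes myosin IIA, rose by 0.20 (SE 0.059, limma adjusted p = 0.0303), and another bright probe set rose by 0.30. Of its 5 probe sets only these 2 passed, and those next in signal differed by 0.11 and 0.069. The call of Myh9 ended without luciferase replicate 1 (limma adjusted p = 0.0806) or 4 (0.0775), without Ctr9 esiRNA replicate 1 (0.0787), 3 (0.0593) or 4 (0.0702), and without luciferase replicates 1 and 2 (0.113) or 3 and 4 (0.0589). Myh10 exceeded Myh9 in its response by 0.41 (exact permutation p = 0.0286, adjusted p = 0.0395).

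The crosslinkers, which tie filaments into bundles and nets, were the least uniform group, with 2 of 6 higher, 1 lower and 3 that did not pass. Of all genes, 15.8% were higher and 15% lower. Flnc, filamin C, read 7.40, 7.33, 7.52 and 7.47 against 8.05, 7.93, 7.75 and 8.01, a rise of 0.50 (SE 0.072, limma adjusted p = 0.00056). Flna, filamin A, rose by 0.43 (SE 0.068), and the difference in response between the filamins did not pass (-0.075, exact permutation p = 0.343). The other, slightly dimmer Flnc probe set rose by 0.80. The size of the Flnc increase, and of its gap to Flna, therefore depends on the probe set. The alpha-actinin genes Actn1 (0.088, 95% interval from -0.0098 to 0.19) and Actn4 (-0.044, from -0.17 to 0.084) and the palladin gene Palld (-0.014, from -0.14 to 0.11) did not pass.

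Lima1, also known as Eplin, a filament stabiliser at epithelial junctions, was the gene that fell. It read 9.80, 9.79, 9.42 and 9.41 in luciferase replicates 1 to 4 and 9.34, 9.24, 9.20 and 9.23 in the Ctr9 esiRNA arrays, a difference of -0.35 (SE 0.097, limma adjusted p = 0.0229). Luciferase replicates 1 and 2 stood far above 3 and 4, and the latter lay just above the Ctr9 esiRNA values. Without luciferase replicates 1 and 2 the difference was -0.16 (limma adjusted p = 0.108), and without replicates 3 and 4 it was -0.54. The call also ended without luciferase replicate 1 (0.0588) or 2 (0.0603) and without Ctr9 esiRNA replicate 2 (0.0521), 3 (0.0585) or 4 (0.0533). Of the other 4 Lima1 probe sets, 2 fell (-0.22 and -0.33), and the mean of all 5 differed by -0.12 (limma adjusted p = 0.0425).

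Focal adhesions join filaments to integrins, and 4 of 6 genes of this group rose, against 15.8% of all genes. Zyx, zyxin, a LIM protein that gathers at adhesions under tension, read 7.87, 7.74, 8.02 and 7.93 with luciferase esiRNA and 9.30, 9.28, 9.07 and 9.12 with Ctr9 esiRNA, an increase of 2.47-fold (1.30, SE 0.074, limma adjusted p = 1.49e-06). Another Zyx probe set rose by only 0.43, so the size depends on the probe set. Ilk, an integrin-linked pseudokinase, read 9.01, 9.01, 9.06 and 8.98 against 9.73, 9.78, 9.73 and 9.85, a rise of 0.75 (SE 0.047, limma adjusted p = 2.60e-06). Both sets of arrays were tight for Ilk. Lasp1 rose by 0.35 (SE 0.068), and 6 of its 9 probe sets passed in the same direction. Vcl, vinculin, rose by 0.27 (SE 0.045), while its other, dimmer probe set differed by 0.10 without passing. The talin gene Tln1 differed by 0.086 (95% interval from -0.018 to 0.19) and the kindlin gene Fermt2 by -0.12 (SE 0.046, limma adjusted p = 0.0891), and neither passed, although a dimmer Tln1 probe set rose by 0.31.

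LIM proteins sit on stress fibres and adhesions, and 5 of 6 rose, against 15.8% of all genes. Csrp1, a cysteine-rich LIM protein of smooth muscle, read 8.52, 8.55, 8.58 and 8.39 against 9.44, 9.46, 9.48 and 9.52, a rise of 0.96 (SE 0.052, limma adjusted p = 1.13e-06), and its second probe set gave 0.96 as well. Pdlim7, a PDZ-LIM adaptor also called enigma, read 9.11, 9.03, 9.25 and 9.15 against 9.96, 10.11, 10.06 and 10.10, a rise of 0.92 (SE 0.059, limma adjusted p = 3.07e-06). The groups of both genes were well apart. Fhl2 rose by 0.37 (SE 0.066), Pdlim1 by 0.25 (SE 0.050) and Fhl1 by 0.20 (SE 0.050). Without luciferase replicates 3 and 4 the call of Fhl1 ended (limma adjusted p = 0.101), and its other, dim probe set gave -0.18 without passing. Pdlim5 differed by -0.0027 (95% interval from -0.11 to 0.10) on its brightest probe set, and 3 of its 7 probe sets, all dimmer, rose. The response of Pdlim7 exceeded that of Pdlim5 by 0.93 and that of Pdlim1 by 0.67 (exact permutation p = 0.0286, adjusted p = 0.0395 for each).

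Of the genes for filament turnover, Gsn and Pfn1 rose most. Gsn, gelsolin, which severs and caps filaments, read 7.35, 7.35, 7.40 and 7.23 against 7.998, 8.02, 8.07 and 8.19, a rise of 0.74 (SE 0.059, limma adjusted p = 1.33e-05), and all 6 of its probe sets passed. Pfn1, profilin, which feeds monomers to growing ends, read 12.04, 12.04, 12.18 and 12.19 against 12.67, 12.72, 12.65 and 12.68, a rise of 0.57 (SE 0.052, limma adjusted p = 2.93e-05). Luciferase replicates 1 and 2 of Pfn1 lay below 3 and 4, and all Ctr9 esiRNA values lay above both sets. Cfl1, cofilin, rose by 0.20 (SE 0.046), and lost its call without luciferase replicates 1 and 2 (limma adjusted p = 0.093). Its relative Dstn, destrin, differed by 0.093 (SE 0.040, limma adjusted p = 0.126), and Capg, a gelsolin relative that caps but does not sever, by -0.029 (95% interval from -0.13 to 0.070). Gsn exceeded Capg in its response by 0.76 (exact permutation p = 0.0286, adjusted p = 0.0395).

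The ERM proteins tether filaments to the plasma membrane. Msn, moesin, rose by 0.39 (SE 0.047, limma adjusted p = 0.000209) and Rdx, radixin, by 0.19 (SE 0.046, limma adjusted p = 0.0141; 0.0989 without luciferase replicates 1 and 2). Ezr, ezrin, the member typical of epithelial microvilli, differed by 0.092 (95% interval from -0.023 to 0.21). The response of Msn exceeded that of Ezr by 0.29 and that of Rdx by 0.20 (exact permutation p = 0.0286, adjusted p = 0.0395 for each), while Ezr and Rdx did not pass (exact permutation p = 0.2). Another Rdx probe set of almost equal mean signal rose by 0.35. The size of the Rdx increase, and of its gaps to Msn and Ezr, therefore depends on the probe set. The scaffold genes Ahnak (0.42, SE 0.076) and Lmna, lamin A/C (0.26, SE 0.050), also rose. For Ahnak, a dim probe set fell by 0.41 (limma adjusted p = 0.0428), so its direction depends on the probe set.

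The pairs of related genes were read together, since a change in 1 relative and not in the other needs a test of its own. Of 29 pairs within 14 families, 21 differed in response between the treatments (exact two-sided permutation test within arrays, p = 0.0286 each, adjusted p = 0.0395 over the pairs), and 8 did not pass. The largest gaps were those of Tpm1 over Tpm3 (1.16), Tagln over Tagln2 (1.01) and Cnn2 over Cnn3 (0.99). The actins, tropomyosins, transgelins, calponins, Pdlim genes, ERM genes, cofilin family and gelsolin family, and the set of Rhoa, Rhob and Rhoc, each held a gene that rose, a relative that did not pass, and a difference between them that passed. In the actins and the cofilin family the relatives Actb (limma adjusted p = 0.000562 and 0.0243) and Dstn (0.00601 and 0.0324) did pass with a trended robust prior and on probe sets above the median signal. The cofilin pair, the smallest of these at 0.10, lost its call with cyclic loess scaling (adjusted p = 0.069), and Actb minus Actg1 (-0.11) lost it with the mean of each gene's probe sets (0.319). With that mean the relatives Tpm3 (limma adjusted p = 0.0205) and Pdlim5 (0.0157) also passed, both higher, and Pdlim1 minus Pdlim5 changed sign. Where a pair did not pass, as for Acta2 and Actg1 (-0.012) or Actn1 and Actn4 (0.13), the test does not show that the relatives acted alike. With 3 against 4 arrays the smallest possible p is 0.0571, so the test cannot pass with an array left out.

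Each gene's other probe sets gave a second look at its direction. The 50 genes have 138 probe sets, of which 71 were higher and 4 lower, against 11.8% and 13.1% of all probe sets. Among the 108 probe sets above the array medians 66 were higher and 3 lower, and among the 30 dimmer ones 5 were higher and 1 lower. Of the 24 genes that passed and have several probe sets, 19 passed in the same direction on another one, and the 5 that did not were Acta2, Myh10, Vcl, Fhl1 and Ahnak. For 11 genes every 1 of several probe sets was higher. Tpm3, Tln1 and Pdlim5 did not pass on their brightest probe set but were higher on a dimmer one, and 12 genes passed on none. Some probe sets, marked by the manufacturer with the letters s or x, can catch transcripts of related genes. On probe sets without these letters 32 of 49 genes rose and 1 fell, while 15.5% of all 17903 genes so measured were higher.

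**Figure D4:**
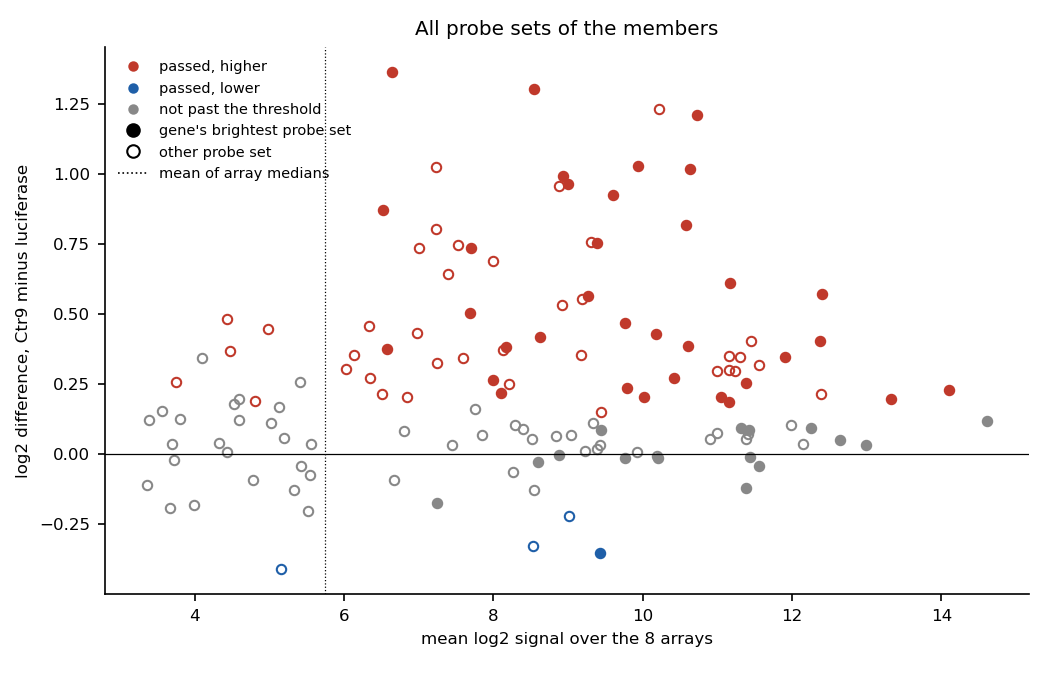
Log2 difference between treatments (vertical axis) against the mean log2 signal over the 8 arrays (horizontal axis) for all 138 probe sets of the 50 genes; filled points are each gene's brightest probe set, open points the others, and colour gives the call. The dotted line marks the mean of the array medians (5.75); large differences are found over a wide range of signals to its right, and the 30 probe sets to its left hold 5 that were higher.

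Other genes of actin assembly, contractility and adhesion moved less uniformly than the 50. Over 5 further lists, 35 of 105 measured genes rose (33.3%), 16 fell (15.2%) and 54 did not pass, at a median of 0.10. Of all genes, 15.8% were higher and 15% lower, and on probe sets above the median signal 25.8% were higher. Of 18 genes for nucleation and branching 4 rose, among them the formin gene Fmnl2 (0.67, SE 0.047), Wasf1 (0.41, SE 0.049) and the Arp2/3 subunit gene Arpc5 (0.36, SE 0.042), and 3 fell, all formins of the Diaph family (Diaph2 at -0.63, SE 0.078).

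Of 23 focal adhesion adaptors 8 rose and 7 fell, so this list had no common direction. Beside the counts of this paragraph stand 15.8% of all genes higher and 15% lower, and 25.8% higher above the median signal. Lpp (1.11, SE 0.109) and Trip6 (0.55, SE 0.054), relatives of zyxin, and Bcar1 (0.66, SE 0.050) rose, while Parvb (-0.72, SE 0.071), a partner of the Ilk protein, fell. Its relative Parva, by contrast, rose by 0.51 (SE 0.103). Of 28 genes for capping, bundling and turnover 11 rose and 2 fell, with the monomer-binding thymosin gene Tmsb4x (0.42, SE 0.044), Pls3 (0.42, SE 0.045), Marcks (0.36, SE 0.044) and Wdr1 (0.32, SE 0.051) at the smallest adjusted p. Of 15 SRF coactivators and early SRF targets 4 rose and 2 fell. Fos rose by 0.71 (SE 0.081), Mcl1 by 0.26 (SE 0.051) and the dim Egr2 by 0.33 (SE 0.072). Junb, with 3 Ctr9 esiRNA values, rose by 0.37 (SE 0.086). Ier2 fell by 0.36 (SE 0.047) and Elk4 by 0.20 (SE 0.058), and Egr1 (0.13) did not pass. Whether SRF had a part in these differences was not tested.

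Markers of cell types that the cultures could hold were read beside the list. For comparison, 15.8% of all genes were higher and 15% lower, and 25.8% of genes above the median signal were higher. Of 18 smooth and striated muscle markers 6 rose and 2 fell, at a median of 0.024, and 9 read below the array median in both groups. Synpo2 (0.85, SE 0.117), Actc1 (0.52, SE 0.080), Myl7 (-0.43, SE 0.049) and Myl4 (-0.42, SE 0.087) had the smallest adjusted p. The other 4 that rose were Acta1 (0.38), Myh6 (0.26), Tnnc1 (0.24) and the smoothelin gene Smtn (0.19). The smooth muscle genes Myh11 (3.92 with luciferase esiRNA, difference 0.12) and Actg2 (4.29, -0.0038), both below the array median, did not pass. Tagln, Cnn1 and Acta2, among the 50, are smooth muscle markers as well and rose. Of 23 fibroblast markers 7 rose and 1 fell at a median of 0.083, with Col5a2 (0.74, SE 0.093), Twist1 (0.41, SE 0.057) and Mmp2 (0.42, SE 0.047) higher, Fn1 lower (-0.48, SE 0.055), and the collagen genes Col1a1 (5.34, 0.049) and Col3a1 (4.12, -0.012) dim without passing. The other 4 that rose were Bgn (0.75), Dcn (0.57), Sparc (0.36) and the collagen gene Col1a2 (0.24). The mean log2 level of the fibroblast list ran from 5.83 to 5.96 over the luciferase arrays and from 5.83 to 6.07 over the Ctr9 esiRNA arrays. The low value of 5.83 among the latter is that of Ctr9 esiRNA replicate 1, which has no value for Fn1, the brightest gene of the list. That mean therefore leaves Fn1 out and cannot be compared with those of the other arrays.

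Most epithelial and trophectoderm markers rose as well. Of 15 such genes 13 rose and none fell, at a median of 1.18, while 15.8% of all genes were higher. The 4 with the smallest adjusted p were Krt8 (2.61, SE 0.071), Krt18 (2.39, SE 0.045), Plac1 (1.496, SE 0.062) and Cldn6 (1.34, SE 0.055), while Krt19 rose by 1.63 and Cdx2 by 1.39. Eomes rose by only 0.28 with overlapping groups, and Tfap2c (-0.13) and the dim Elf5 (0.049) did not pass. The mean log2 level of the 15 genes ran from 7.53 to 7.67 with luciferase esiRNA and from 8.67 to 8.71 with Ctr9 esiRNA. Of 14 pluripotency markers 7 fell and 3 rose, at a median of -0.16, with Esrrb (-1.096, SE 0.069), Tfcp2l1 (-0.92, SE 0.043) and Klf4 (-0.91, SE 0.048) lower and Lin28a (0.79, SE 0.054) higher. All 14 read above the array median in both groups, as is typical of ES cells. Of 10 endothelial and blood markers none rose and 2 fell, Pecam1 (-1.13, SE 0.057), which ES cells also express, and Tek (-0.26, SE 0.053). The part of any of these cell types in the higher actin cytoskeleton genes was not tested.

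**Figure D5:**
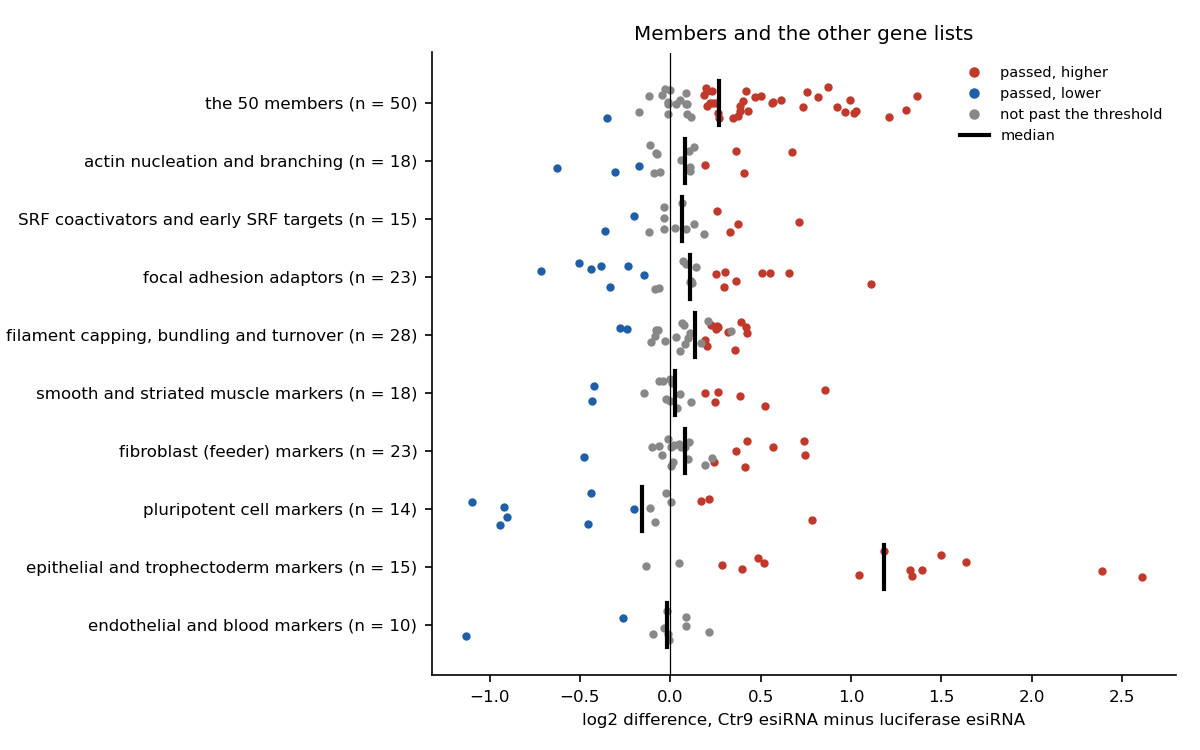
Log2 difference between Ctr9 esiRNA and luciferase esiRNA (horizontal axis) for every gene of the list of 50 and of 9 other lists (rows, with the number of genes measured); red points passed and were higher, blue points passed and were lower, grey points did not pass, and black bars are medians. The median of the 50 genes is 0.27, those of the other 4 actin lists shown lie between 0.065 and 0.14, and that of the epithelial and trophectoderm markers is 1.18.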

How the data were processed

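RNA of 8 samples was measured on 1-colour Affymetrix arrays after 1-cycle biotin labelling, per the labels' protocols. Each probe set has a deposited log2 signal. GCOS 1.4 and RMA appear among the tools in the submitters' processing notes, without settings. In general, RMA equalises the arrays' distributions and compresses differences of low signals. The values were used without further scaling or filter. Of 45101 probe sets, 64 manufacturer controls were kept apart, and the fit covered 45037, of which 34945 have 1 symbol, 932 several and 9160 are unnamed here. All 50 genes had complete values.

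The test was limma 3.58.1 in R 4.3.3 (lmFit, eBayes), Ctr9 minus luciferase esiRNA, with Benjamini-Hochberg adjustment over all probe sets. SE is limma's moderated standard error. Pairs of related genes and the Actb controls were compared by exact two-sided permutation over 4 against 4 arrays (scipy 1.17.1), pairs adjusted over 29. The members, lists and motifs were chosen with earlier results of these data known, and the probe set suffix alternative after seeing the data. Array values are printed for genes that passed with a difference of at least 0.5 or that fell, the actins and Srf; of other lists, up to 4 genes with the smallest adjusted p that passed, and a few that were named after their values were seen. On simulated arrays of this comparison (45037 probe sets, 50 changed ones per size) limma found 100% of changes of 1 log2 unit, 96% at 0.5, 42% at 0.3 and 2% at 0.2, with 6 false calls among 126. Far fewer probe sets were changed there than the 24.9% that passed in the data, so the adjustment was stricter. The shares found at 0.3 and 0.2 therefore do not give the sensitivity of the real comparison. Figures were drawn with matplotlib 3.10.9. Precision is limited by the number of arrays. The result of 1 of the other actin lists is not reported here, though its genes are in the counts pooled over 5 lists.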

Additional observations from a re-analysis of the deposited data

Results flagged for a closer look

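Among 110 sets of 4 values checked for a sample that stands apart (Dixon's criterion), 2 were found, and chance gives about 1 in 20. Cnn2 read 9.27 in luciferase replicate 2, against 9.46 to 9.49 in the other luciferase arrays. Tpm2 read 9.94 in Ctr9 esiRNA replicate 1, against 10.002 to 10.01 in the other Ctr9 esiRNA arrays, which is still above every luciferase value.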

How the results depend on the processing

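Scaling (array medians, quantile, cyclic loess), array weights, complete probe sets and updated symbols left the same 34 of the 50 genes higher. Of all genes, 15.8% to 17.3% were higher in these settings. The mean of each gene's probe sets gave 34 too, against 16.3% of all genes, but only 31 of them were shared. Acta2, Fhl1 and Ahnak lost the call, and Tpm3, Tln1 and Pdlim5 gained it. A trended robust prior gave 37 (adding Actb, Dstn and Actn1), against 18.4% of all genes. Probe sets above the median signal gave 36 (adding Actb and Dstn), against 25.8% of the genes so measured. Each gene's next brightest probe set gave 30, against 13.1% of all genes, and a threshold of 0.01 gave 28, against 10.5%. Of the 34 genes, 25 kept their call in every setting, other than stricter thresholds, that measured them (22, or 21 for Actg1), and 9 lost it in at least 1. Leaving out 1 array gave 32 to 34 genes higher and 0 to 1 lower, while 13.5% to 14.6% of all genes were higher. The replicate numbers do not pair the arrays: same-numbered arrays correlated between -0.078 and 0.063 in their deviations, and 4 of 8 arrays correlated best with their own number. With the replicate number as a block 32 genes rose and 1 fell, while 13.6% of all genes were higher. Acta2 (limma adjusted p = 0.0595) and Myh9 (0.0725) lost their calls. No pair can pass with an array left out or under the block, where the smallest exact permutation p is 0.0571 and 0.125.

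The count of lower genes was 2 with the trended prior, 3 above the median signal, 0 without luciferase replicates 1 and 2, and 2 with the mean of probe sets. It was 0 at a threshold of 0.01, where the array had 1902 genes higher and 1758 genes lower. With a 1.5-fold minimum 13 of the 50 were higher and 0 lower, of all genes 558 and 353, and of the other actin lists 6 and 2. The median of the 50 was 0.23 with the mean of probe sets and 0.297 on probe sets without the s or x suffix. Directions turned as follows, and the cause was not tested. Pdlim5 was 0.0059 with median centring, 0.017 with cyclic loess, 0.00098 with array weights, 0.045 without luciferase replicates 1 and 2, 0.19 with the mean of probe sets and 0.16 on the next brightest one. Cnn3 was -0.011 with quantile scaling. Without luciferase replicates 3 and 4, Actn4 was 0.047 and Palld 0.050. With the mean of probe sets Tagln2 was 0.042, Ahnak -0.071, Acta2 minus Actb -0.016, Tpm1 minus Tpm4 -0.18 and Pdlim1 minus Pdlim5 -0.025. On the next brightest probe set Tagln2 was 0.018, Palld 0.011, Rhoa 0.053 (also without suffixes), Myh10 -0.042, Actn1 -0.13, Fhl1 -0.18 and Ahnak -0.20. Acta2 minus Actg1 was 0.0059 with quantile scaling and 0.026 with cyclic loess. With 1 array left out, Tagln2 ranged from -0.059 to 0.018, Palld from -0.044 to 0.019, Pdlim5 from -0.021 to 0.022, and the pair Acta2 minus Actg1 from -0.055 to 0.022.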

Other observations

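Other short motifs were counted in the same promoters, on both strands. The TEAD motif GGAATG was present in 13 of 48 genes of the list (27.1%), against 15.3% of measured genes and 14.7% of all promoters in the table. It was found in 10 of 33 genes that rose (30.3%), among them Tpm1, Cald1, Myh10 and Pfn1. Of the 15 others 3 held it (20%), namely Tagln2, Actn4 and Palld. TATAAA was present in 8 of 48 (16.7%), against 11.5% of measured genes and 13.6% of all promoters. Neither motif overlapped a CArG box in these promoters, and Vcl was the gene with both a CArG box and GGAATG. Among the 5 other actin lists, 5 of 82 genes with an entry held a CArG box (6.10%).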
